A study of Homo sapiens with 33 samples.

Results

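DIRAS3 and PEG10, a pair of imprinted genes, and IGF2BP1, an oncofetal RNA-binding gene, were followed across 2 human cell lines with and without tumour necrosis factor alpha (TNF). Members were all array spots whose single gene symbol in the platform annotation was 1 of these 3 symbols. They came to 6 of 34560 spots, with 1 spot for DIRAS3 (58L20), 3 for PEG10 (23I24, 50P19 and 87I22) and 2 for IGF2BP1 (18C07 and 31J05). DIRAS3 was chosen for its values in TNF-treated CaCo-2 cells and PEG10 for its values in unstimulated CaCo-2 against THP-1 cells, so those contrasts, and other contrasts of the same gene that use any of those arrays, are given as descriptions without a test. Which values led to IGF2BP1 is unknown here, and all its values are descriptions.

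THP-1 is a monocytic leukaemia line and CaCo-2 a colon carcinoma line of epithelial type. Each was left unstimulated or received TNF at 5 ng/ml for 60 min, and mRNA was copied into radioactively labelled cDNA and hybridised to arrays of spotted cDNA. After duplicate columns of the same array were joined, 5 arrays of unstimulated THP-1, 7 of TNF-treated THP-1, 5 of unstimulated CaCo-2 and 5 of TNF-treated CaCo-2 cells were used. The labels do not say that arrays came from separate cultures, so a p-value reflects only array-to-array spread, possibly technical, and precision is limited by how few arrays there are. Whole cultures were lysed, so fewer expressing cells and less RNA per cell cannot be told apart.

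In genomic imprinting a gene is read mainly from the copy inherited from 1 parent, the other copy being silenced by DNA methylation set in the germ line. DIRAS3 (also ARHI) encodes a Ras-related GTPase that restrains growth, is often silenced in breast and ovarian cancers, and takes part in autophagy through the beclin complex. PEG10 is a paternally expressed gene derived from a retrotransposon, encodes gag-like proteins, is needed for the placenta and is high in liver cancers. IGF2BP1 binds and stabilises mRNAs such as those of IGF2, MYC and ACTB, is active in the embryo and returns in many tumours.

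The RefSeq promoter window of DIRAS3 is shown because its CpG dinucleotides, the sites of DNA methylation, are where imprinting marks can lie. It spans chr1:68050578-68050877 on the minus strand of GRCh38.p14, from 250 bases before to 50 bases after the gene's start. It is printed 5′ to 3′ with each CpG in capitals. DIRAS3 was the only member with an entry in the promoter table.
DIRAS3: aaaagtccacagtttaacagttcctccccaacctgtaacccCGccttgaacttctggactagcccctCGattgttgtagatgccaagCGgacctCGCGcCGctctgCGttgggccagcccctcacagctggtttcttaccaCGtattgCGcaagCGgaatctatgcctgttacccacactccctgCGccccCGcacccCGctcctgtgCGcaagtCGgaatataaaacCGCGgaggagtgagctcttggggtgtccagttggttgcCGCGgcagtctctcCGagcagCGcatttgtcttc

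This window held 21 CpG and was 58.3% G or C. Over the 35116 promoter windows of 300 bases, the median was 14 CpG, and 39.5% of windows held at least as many as DIRAS3. The 48 imprinted genes of the list below that have a window held a median of 18 CpG, from 0 to 50. Methylation was not measured here, and the count describes the sequence alone.

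Many spots carried a deposited value of exactly 0, from 32.0% to 39.6% of spots per array, and no source says what 0 stands for. Of the 33 deposited columns, 11 held values roughly 3 times as high as the rest, here called summed columns. For 9 arrays in use, a single column and its summed partner were both deposited. Among 204028 readings above 0 in both, the summed value was exactly 2 times the single value at 48300 (tolerance 1e-06) and more than 2.3 times it at 155660, with 1 reading in between and 67 below 2 times. No other column met more than 1 exact ratio of 2 with a given summed column, against 4088 to 6337 in its own pair. In 43067 readings the single value was 0 while the sum was above 0. Such ratios would arise from 3 component readings if the single value were the middle one, their mean when only 2 are above 0, and 0 when 1 or none is. This reading is an inference from the ratios, was not tested, and does not give the 67 below 2 times. No source says what the components are, and the counts of components given here rest on this inference. Of 132 member readings on the arrays used, 65 were above 0, 66 were at 0 and 1 carried a code for an excluded spot. Of the 54 with a summed partner, 25 by this reading had 3 components above 0, 8 had 2, 7 had 1 and 13 had none.

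The labels of the lines were set against lists of defining markers. Of 16 epithelial markers 4 were on the array (VIL1, CDH17, ELF3 and GPA33), and of 17 monocytic markers 5 (PTPRC, LAPTM5, CSF1R, TYROBP and CD4). LAPTM5, a lysosomal protein of blood cells, was above 0 on 5 of 5 unstimulated THP-1 arrays and on 0 of 5 unstimulated CaCo-2 arrays. The other monocytic markers, at their brightest spots, differed in direction and did not pass in limma. CaCo-2 minus THP-1 without TNF was 0.27 in log2 for CD4, 0.03 for TYROBP, -0.02 for PTPRC and -0.60 for CSF1R. Spots of ELF3, an epithelial transcription factor, differed in direction: 88A17 was above 0 on 5 of 5 unstimulated CaCo-2 and 0 of 5 unstimulated THP-1 arrays (log2 difference 0.36), and the brighter 85B06 on 0 of 5 and 5 of 5 (-0.19 ± 0.02, SE). Although an epithelial marker, ELF3 at 85B06 was thus higher in THP-1 cells, and it passed (limma adjusted p = 0.00134), where 0.168% of spots were called lower. The same difference at the brightest spots was 0.08 for VIL1, 0.14 for GPA33 and -0.09 for CDH17, and these did not pass. The marker sums of the lines overlapped: summed over the 4 epithelial markers, intensity was 0.813 to 1.04 in unstimulated THP-1 and 0.605 to 0.975 in unstimulated CaCo-2 cells. After TNF it was 0.758 to 0.851 in THP-1 and 0.699 to 1.10 in CaCo-2. The 5 monocytic markers summed to 2.20 to 2.64 and 1.86 to 2.48 in the unstimulated lines, and to 2.27 to 2.46 and 1.77 to 2.49 after TNF, THP-1 first. In each group, 0 or 1 marker of a list was at 0 on every array. What part these levels have in the line comparisons was not tested.

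**Figure D1:**
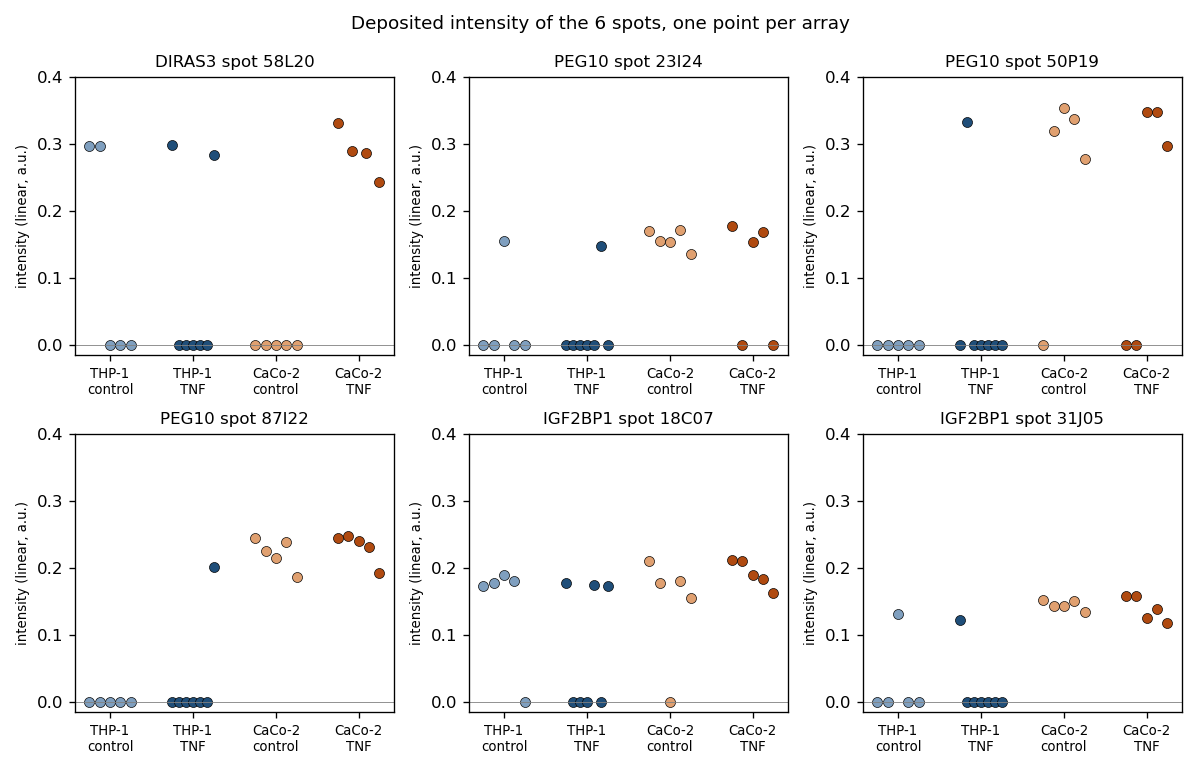
Deposited intensity (linear scale, single-column units) of the 6 member spots on each array, by group, with 1 point per array and values of exactly 0 drawn on the zero line. DIRAS3 is at 0 on all 5 unstimulated CaCo-2 arrays and above 0 on all 4 measured TNF-treated ones, and PEG10 spot 87I22 is above 0 on all 10 CaCo-2 arrays and on 1 of 12 THP-1 arrays.

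DIRAS3 was listed at 0 in all unstimulated CaCo-2 arrays and was above 0 in all measured CaCo-2 arrays after TNF, while in THP-1 it was above 0 on a minority of arrays with or without TNF. In CaCo-2 cells after TNF its intensities were 0.332, 0.290, 0.287 and 0.243 on replicates 2, 4, 5 and 6, and replicate 1 carried the excluded code. In unstimulated CaCo-2 cells all 5 replicates were at 0. The CaCo-2 groups did not overlap. These are the values for which the gene was chosen, so the contrast carries no test. For scale, 0.0406% of 34516 spots were above 0 on every measured TNF-treated array and at 0 on every unstimulated one, and 0.122% were higher without overlap.

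The summed partners gave a finer reading of the zeros. In unstimulated CaCo-2 cells the sums were 0 on replicates 1 and 4, but 0.270 on replicate 2 and 0.240 on replicate 3, which is read as 1 component above 0 on each of those. Replicate 5 had no partner. In TNF-treated CaCo-2 cells replicate 5 had a sum of 0.575, from 2 components, and replicate 1 had a sum coded -2. In unstimulated CaCo-2 cells the summed column was thus above 0 on 2 of 4 paired arrays, of which 0.270 lay within the range of the single values after TNF and 0.240 just below it.

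A further array was deposited under both CaCo-2 labels, its single column as TNF replicate 3 and its summed column as control replicate 8. Its DIRAS3 intensity was 0.284 and its sum 0.841, from 3 components, which lay within the range of the TNF-treated arrays. The array was left out of both groups. The difference in normalised log2 intensity, with 0 set at the array's lowest value above 0, was 1.50 without it, 1.50 with it as a TNF array and 1.24 with it as a control. In that last case 1 of 6 control arrays overlapped the TNF group.

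In THP-1 cells DIRAS3 was 0.298 on both replicates 1 and 2 without TNF and 0 on replicates 3, 4 and 7. After TNF it was 0.299 on replicate 1 and 0.283 on replicate 8, and 0 on replicates 2 to 6. The ranges overlapped, and where the spot was above 0 it lay near the levels of TNF-treated CaCo-2 cells. The summed value was 0.595 on control replicate 1, from 2 components, 0.877 on control replicate 2, from 3, and 0.276 on TNF replicate 6, from 1.

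Mean normalised log2 intensity of DIRAS3 was -2.67 ± 0.81 (SD, n = 5) in unstimulated and -2.83 ± 0.73 (SD, n = 7) in TNF-treated THP-1 cells. The difference, TNF minus control, was -0.17, with an exact permutation p of 1 (two-sided) and a limma adjusted p of 1, where 0.0145% of 34559 spots were called. Leaving out 1 array at a time moved it between -0.35 and 0.06, so its direction rested on single arrays. The order of the groups was TNF-treated CaCo-2 (-1.76 ± 0.02, SD, n = 4), unstimulated THP-1, TNF-treated THP-1 and unstimulated CaCo-2 (-3.26, all at 0), and every group overlapped its neighbour in this order.

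PEG10 was seen mainly in CaCo-2 cells. Spot 87I22 was above 0 on 10 of 10 CaCo-2 and 1 of 12 THP-1 arrays, spot 23I24 on 8 of 10 and 2 of 12, and spot 50P19 on 7 of 10 and 1 of 12. Levels are not set against each other between spots, which differ in their cDNA.

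For spot 87I22 the intensities in unstimulated CaCo-2 cells were 0.246, 0.226, 0.216, 0.239 and 0.187 on replicates 1 to 5. After TNF they were 0.245, 0.248, 0.240, 0.232 and 0.193 on replicates 1, 2, 4, 5 and 6. In THP-1 cells the spot was at 0 on all 5 unstimulated arrays and on 6 of 7 TNF-treated ones, with 0.202 on replicate 8. Every paired CaCo-2 array had 3 components above 0, whereas unstimulated THP-1 replicate 2 (sum 0.204) and TNF-treated replicate 6 (sum 0.197) each had 1. CaCo-2 cells with and without TNF covered the same range, and the lines were apart except for that 1 THP-1 array.

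The comparison of the lines after TNF uses arrays other than those for which PEG10 was chosen. Earlier results of these data were known at that choice and may include this comparison, so its test is not independent support. After TNF the mean log2 intensity of 87I22 was -2.11 ± 0.07 (SD, n = 5) in CaCo-2 and -3.11 ± 0.40 (SD, n = 7) in THP-1 cells, a difference of 1.00. The exact permutation test gave p = 0.00253, the smallest this design allows, and 0.0177 after Benjamini-Hochberg adjustment over the 7 exact tests run, of which 3, for TNF on PEG10 in THP-1 cells, are not given. In limma the adjusted p over all spots was 0.0332, where 0.709% of 34560 spots were called higher. The limma call was lost, at adjusted p up to 0.0800, when any array but THP-1 TNF replicate 8 was left out, and was 3.33e-07 without that array. Without 1 array the exact test's adjusted p lay between 0.0303 and 0.0424. Each was the smallest value possible with that number of arrays, so this range follows the array count and does not measure stability. On normalised values the groups did not overlap, as for 1.78% of 34529 spots, and on deposited intensity THP-1 replicate 8 (0.202) lay above CaCo-2 replicate 6 (0.193).

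Spot 23I24 read 0.171, 0.156, 0.154, 0.172 and 0.136 on the 5 unstimulated CaCo-2 arrays. After TNF it read 0.178, 0.155 and 0.169 on replicates 1, 4 and 5 and was at 0 on replicates 2 and 6. In THP-1 cells it was above 0 on unstimulated replicate 3 (0.156) and TNF-treated replicate 6 (0.148) alone. Both THP-1 readings fell inside the CaCo-2 range, so the line difference in this spot was one of how many arrays were above 0. THP-1 replicate 3 is the summed column without a partner, divided by 3. With it the unstimulated log2 difference between lines was 0.55, and without it 0.66.

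Spot 50P19 read 0.320, 0.354, 0.337 and 0.278 on unstimulated CaCo-2 replicates 2 to 5 and 0 on replicate 1. After TNF it read 0.348, 0.348 and 0.297 on replicates 4, 5 and 6 and 0 on replicates 1 and 2. In THP-1 cells it was above 0 on TNF-treated replicate 2 alone, at 0.332. The sum was 0 on unstimulated CaCo-2 replicate 1 and 0.294, from 1 component, on TNF-treated replicate 1. The zeros in CaCo-2 cells thus held both an array with no component above 0 and an array with 1. They fell on the arrays whose lowest value above 0 was highest. It was 0.130 on unstimulated CaCo-2 replicate 1, and 0.134 and 0.136 on TNF-treated replicates 1 and 2. On all other arrays it was at most 0.117. What part this has in the zeros was not tested.

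After TNF, CaCo-2 minus THP-1 was 0.31 for 23I24 and 0.83 for 50P19, each with an exact permutation p of 0.0909 (0.212 after adjustment) and limma adjusted p of 0.423 and 0.446. The direction was the same in all 3 PEG10 spots, and 1 passed. In unstimulated cells, for which the gene was chosen, the differences were 0.55, 1.39 and 1.16 for 23I24, 50P19 and 87I22, where 0.281% of 34559 spots were called higher. Of these only 87I22 was under the limma threshold (adjusted p 0.120, 0.146 and 2.50e-06, in that order), a description since the choice used these values. The comparisons before and after TNF share no array, but whether they share cultures is unknown here.

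For TNF against control, PEG10 is described without a test in both lines, because each control group belongs to the contrast on which the gene was chosen. In THP-1 cells TNF minus control was -0.04, 0.23 and 0.15 for 23I24, 50P19 and 87I22. Spots 50P19 and 87I22 were at 0 on 5 of 5 control arrays, so a fall could not have been seen. In CaCo-2 cells the differences were -0.28, -0.33 and -0.01. The -0.33 of 50P19 went with its zeros, on unstimulated replicate 1 and TNF-treated replicates 1 and 2. Those were the arrays with the highest lowest value above 0, and their part in this difference was not tested.

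**Figure D2:**
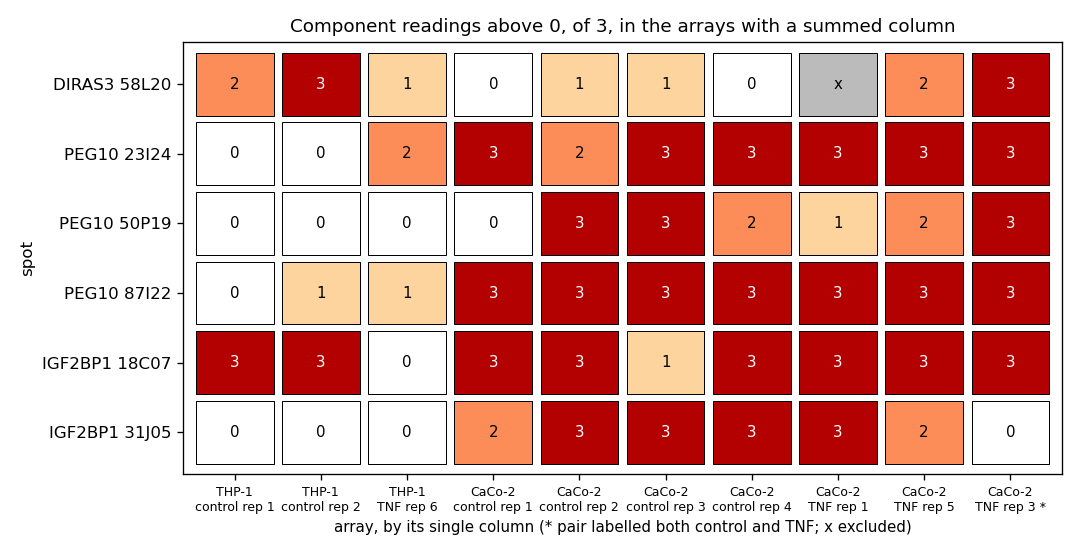
Number of component readings above 0, of 3, as inferred from the ratio of the summed to the single column. Each square is 1 member spot (row) on 1 array with both a single and a summed column, with the number inside. A star marks the array with both CaCo-2 labels, and x an excluded reading. PEG10 spot 87I22 has 3 components above 0 on every paired CaCo-2 array, while DIRAS3 in unstimulated CaCo-2 cells has 1 component on 2 arrays and none on 2.

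IGF2BP1 differed between its spots. Spot 31J05 was above 0 on 10 of 10 CaCo-2 and 2 of 12 THP-1 arrays, and spot 18C07 on 9 of 10 and 7 of 12. For 31J05 the unstimulated CaCo-2 intensities were 0.153, 0.144, 0.144, 0.150 and 0.134, and those after TNF 0.159, 0.158, 0.125, 0.140 and 0.118. In THP-1 cells only unstimulated replicate 3 (0.132) and TNF-treated replicate 1 (0.123) were above 0. The lines overlapped after TNF, where the THP-1 reading lay above the lowest CaCo-2 reading. Before TNF they did not, as for 0.319% of 34522 spots higher in CaCo-2 cells. The gap was small, 0.132 against 0.134. The 0.132 comes from the summed column without a partner, divided by 3, and the gap depends on that divisor. In the matched THP-1 control columns the median ratio was 2.98 and 2.95 at spots read as 3 components. On normalised values the THP-1 reading was -2.97 and the lowest CaCo-2 reading -2.91.

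Mean log2 intensity of 31J05 was -2.72 ± 0.11 in unstimulated and -2.89 ± 0.04 in TNF-treated CaCo-2 cells (SD, n = 5 each). It was -3.20 ± 0.13 (SD, n = 5) and -3.23 ± 0.09 (SD, n = 7) in the matching THP-1 groups. CaCo-2 minus THP-1 was 0.48 before TNF and 0.34 after it. The array with both CaCo-2 labels was at 0 in this spot, with a sum of 0, and was the only CaCo-2 array with that reading. Taken as a control it lowered the unstimulated difference to 0.39.

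For 18C07 the unstimulated THP-1 intensities were 0.174, 0.178, 0.190 and 0.180, with 0 on replicate 7, and after TNF replicates 1, 5 and 8 read 0.179, 0.175 and 0.174, the other 4 being at 0. Unstimulated CaCo-2 cells gave 0.212, 0.177, 0.180 and 0.155, with 0 on replicate 3, where the sum of 0.146 came from 1 component. After TNF CaCo-2 cells gave 0.213, 0.211, 0.191, 0.184 and 0.163. All 4 groups overlapped. The log2 means were -2.58 ± 0.38 and -2.39 ± 0.05 in CaCo-2 (SD, n = 5 each), and -2.66 ± 0.34 (SD, n = 5) and -2.93 ± 0.42 (SD, n = 7) in THP-1, without and with TNF. The 2 spots of IGF2BP1 therefore gave unequal line differences, and which transcripts each cDNA detects is unknown here.

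What varied in all 6 spots was whether a reading was above 0, rather than its size. Within a line, the highest reading above 0 was 1.05 to 1.37 times the lowest of the same spot. Part of that spread went with 2 arrays. Unstimulated CaCo-2 replicate 5 and TNF-treated replicate 6 had a highest value over all spots of 135 and 133, against 142 to 145 on the other 20 arrays, and each gave the lowest reading above 0 of its group in all 5 member spots where it was above 0. Quantile normalisation removes such differences in scale. Another set of arrays stood apart in its lowest value above 0. This was 0.130 on unstimulated CaCo-2 replicate 1, and 0.134 and 0.136 on TNF-treated replicates 1 and 2. On all other arrays it was at most 0.117. In both IGF2BP1 spots and 1 PEG10 spot these arrays gave the highest CaCo-2 readings, but not in every member spot.

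How often spots of a similar level were at 0 differed between the member spots. Spots whose median reading above 0 lay within 10% of that of DIRAS3, 2326 in number, were at 0 on a median of 13.6% of arrays, against 61.9% for DIRAS3. For PEG10 the shares at 0 were 54.5%, 63.6% and 50% for 23I24, 50P19 and 87I22, against medians of 40.9%, 9.09% and 18.2%. DIRAS3, 50P19 and 87I22 were thus at 0 more often than the typical spot of their level, although 9.46%, 10.0% and 20.7% of such spots were at 0 at least as often. These shares count the zeros of the arrays on which DIRAS3 and PEG10 were chosen. The excess can follow from that choice and is given as a description. The IGF2BP1 spots lay near their medians, with 27.3% against 36.4% for 18C07 and 45.5% against 40.9% for 31J05.

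**Figure D3:**
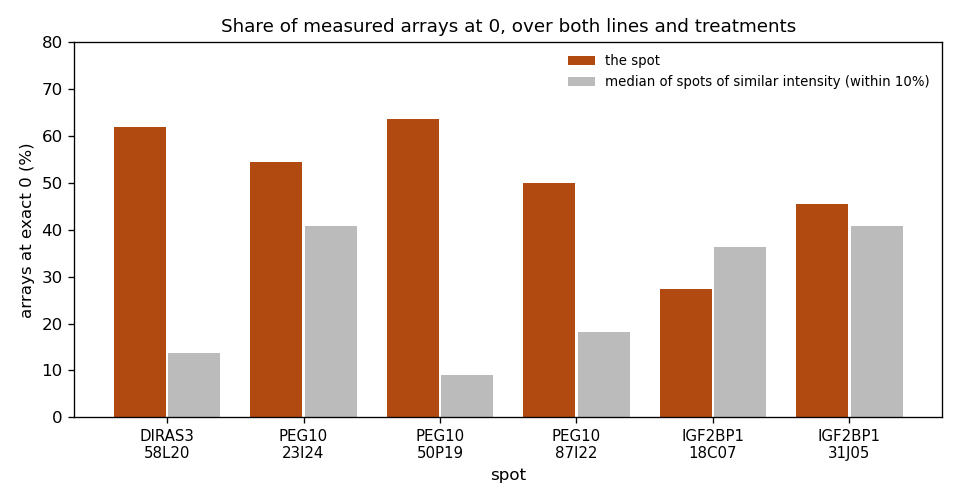
Share of arrays at exactly 0 (percent) for each member spot beside the median share of all spots with a similar reading above 0 (within 10%). DIRAS3 stands at 61.9% against 13.6% and PEG10 spot 50P19 at 63.6% against 9.09%, while both IGF2BP1 spots are near their medians. The shares include the arrays on which DIRAS3 and PEG10 were chosen.

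Genes with the most similar pattern were found by Pearson r of normalised log2 intensity over the arrays, among 17983 spots. The arrays share the scaling and many zeros, so r mostly reflects which arrays were above 0, and it is given as a description. For DIRAS3 they were HOPX (r = 0.79 over 20 arrays), SLC35A5, ALDH3B2, MRPS25 and PLEKHG1. For PEG10 spot 50P19, TBC1D4 reached 0.997 and stood on the same side of 0 on 22 of 22 arrays, followed by DSP, RASL10B, LOC101928343 and SAR1A. For 87I22 REXO1 reached 0.992, also on the same side on 22 of 22, followed by PKDCC, PPP1R1C, PCNX4 and KRTCAP3. SAR1A (0.89) and PCNX4 (0.91) were exceptions, above 0 on every array and on the same side on 8 and 11 of 22. Their r reflects the size of their readings. For 23I24 AAMDC (0.91) was followed by PCYOX1, AQP3, ERO1A and RTKN. IGF2BP1 spot 31J05 was most like CTTN (0.91), TMEM98, STARD10, KRTCAP3 and HDAC7, and 18C07 most like C19orf25 (0.79), KLC1, CLDN4, DPF2 and HIC2. Among the members, 31J05 gave r = 0.81 with 87I22, 0.79 with 23I24 and 0.68 with 50P19, while the PEG10 spots gave 0.56 to 0.64 with each other (22 arrays).

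Of 70 imprinted genes listed, 29 were on the array, each taken by its brightest spot, which is 50P19 for PEG10. In CaCo-2 cells after TNF 1 was called higher, DIRAS3 itself, which the choice of gene fixes, and 0 lower (0.026% of all spots were called higher, and 4.21% had an unadjusted p under 0.05). Each of 10 fits without 1 array kept DIRAS3 under the threshold, but 3 of 8 other settings did. It was lost, by limma adjusted p, without normalisation (0.0530), in 1 fit of all 4 groups (0.313), on the mean with the summed column (0.0819), with the replicate block (0.484) and with the doubly labelled array as a control (0.692). DIRAS3 could not be fitted with 0 as missing or among spots above 0 on every array. All these fits use the values for which the gene was chosen, so the kept calls are descriptions and no support. The list's median log2 difference was 0.0058, against 0.0030 over 10726 genes. MEST, a paternally expressed hydrolase-like gene, was above 0 on every measured CaCo-2 array and differed by 0.02 ± 0.07 (SE). SNRPN, the splicing factor gene of the Prader-Willi region, was above 0 on 5 of 5 arrays in both CaCo-2 groups and differed by 0.01 ± 0.05 (SE). GNAS, which encodes the stimulatory G protein alpha subunit, was likewise above 0 on every CaCo-2 array, with a difference of 0.002 ± 0.07 (SE).

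In THP-1 cells after TNF 0 of the 29 were called in either direction by limma, and 1 had an unadjusted p under 0.05, against 3.37% of all spots. The median was -0.04, against 0 over all genes. KCNQ1OT1, the long noncoding RNA that silences its neighbours at the imprinted 11p15 region, was above 0 on 2 of 7 TNF-treated and 5 of 5 unstimulated arrays, a difference of -0.45 ± 0.14 (SE, limma adjusted p = 0.958). H19, a maternally expressed noncoding RNA, was above 0 on 3 of 7 and 5 of 5, with -0.48 ± 0.22 (SE, limma adjusted p = 0.958). Other spots of both genes ran the other way: KCNQ1OT1 spot 39I06 gave 0.07, and H19 spot 16L08 gave 0.25, above 0 on 6 of 7 and 3 of 5 arrays.

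Between the unstimulated lines 1 imprinted gene was called by its brightest spot, OSBPL5, an oxysterol-binding protein gene. It was above 0 on 0 of 5 CaCo-2 and 5 of 5 THP-1 arrays, with a difference of -0.30 ± 0.02 (SE); 0.168% of spots were called lower. Every one of 10 fits without 1 array kept the call, and 5 of 8 other settings did, with a highest limma adjusted p of 0.724. After TNF 0 of 29 were called by limma and 6 had an unadjusted p under 0.05, against 12% of all spots. The smallest belonged to GNAS, at 0.20 ± 0.05 (SE, limma adjusted p = 0.0973), which was above 0 on all 12 arrays of that comparison. Spots of GNAS differed in sign: 32O07 gave -0.90, above 0 on 0 of 5 CaCo-2 and 5 of 7 THP-1 arrays, and 66L21 gave -0.32.

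**Figure D4:**
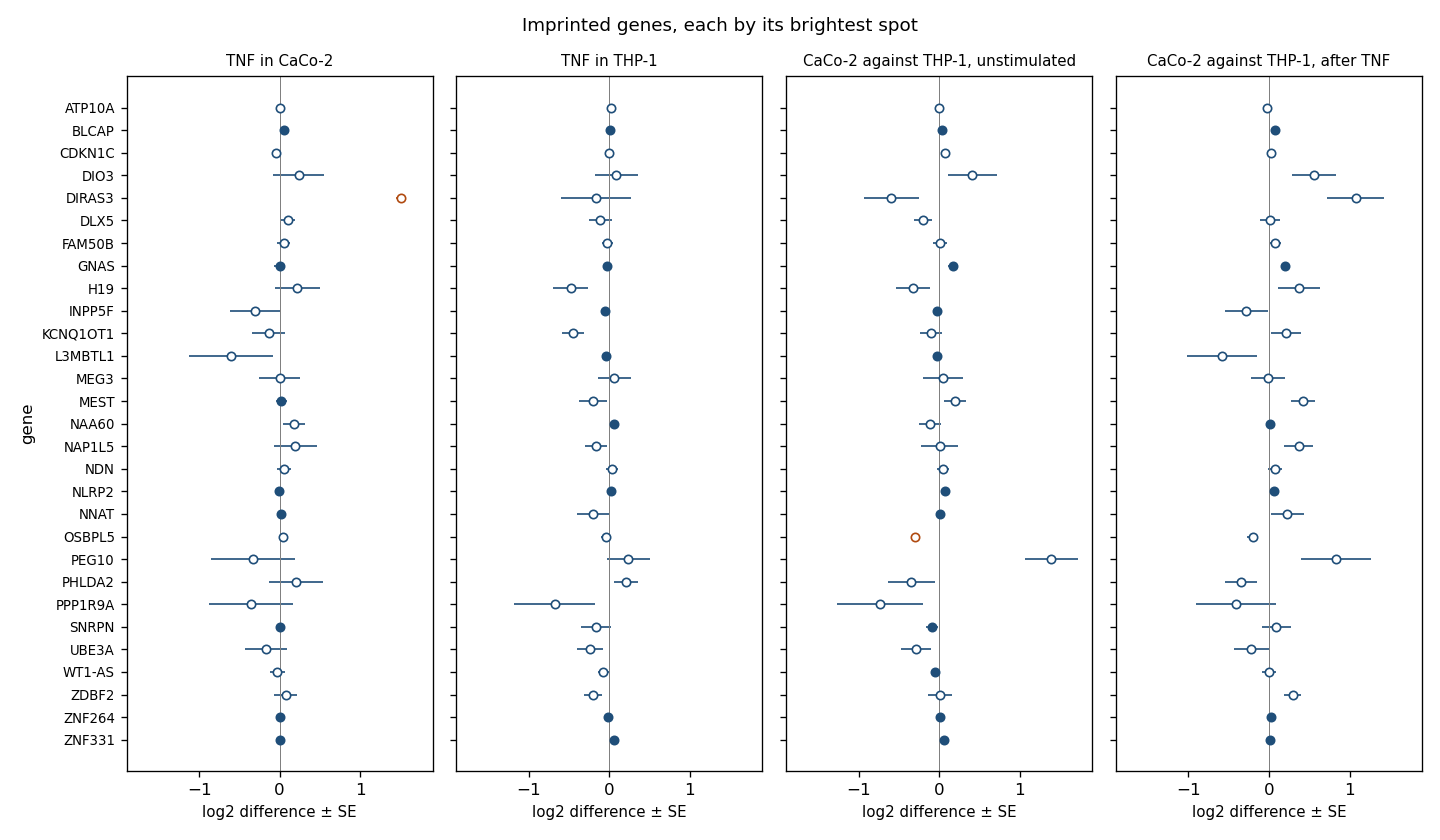
Log2 difference in normalised intensity of 29 imprinted genes (brightest spot) in the 4 comparisons, with bars showing the SE; filled points are above 0 on every array of the comparison, open points at 0 on some, and orange marks an adjusted p under 0.05. DIRAS3 in TNF-treated CaCo-2 cells (1.50) and OSBPL5 between the unstimulated lines (-0.30) are the only orange points, and DIRAS3 was chosen on that contrast.

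Of 34 Ras subfamily GTPases, the relatives of DIRAS3, 22 were on the array. Those with an unadjusted p under 0.05 were 2 and 0 for TNF in CaCo-2 and THP-1, and 5 in each line comparison, against 12% of all spots there. RASL10B and RASL10A, small GTPases of little-known role, had the smallest p between the unstimulated lines, at 0.72 ± 0.17 and 0.61 ± 0.16 (SE). Both were above 0 on 4 of 5 CaCo-2 and 0 of 5 THP-1 arrays, and neither passed. DIRAS1, its nearest relative together with DIRAS2, was above 0 on 5 of 5 unstimulated and 4 of 5 TNF-treated CaCo-2 arrays, a difference of -0.18. DIRAS2 at its brightest spot was above 0 on all 22 arrays and differed by 0.04. Neither passed the test in any of the 4 comparisons. Beyond DIRAS3, 1 Ras gene was called, MRAS, lower in CaCo-2 than in THP-1 cells after TNF by a log2 difference of -0.23 ± 0.05 (SE, limma adjusted p = 0.0423). It was above 0 on 0 of 5 and 6 of 7 arrays, and 0.541% of spots were called lower. That call was kept in 1 of 12 fits without 1 array, with an adjusted p of up to 0.0944, and in 3 of 7 other settings. Of 23 autophagy and signalling partners 19 were measured, among them BECN1, the beclin gene, PIK3C3, its lipid kinase, and MAP1LC3B, the autophagosome marker. By limma 0 were called in each of the 4 comparisons, and at most 1 had an unadjusted p under 0.05. Over all spots 0.0434% and 0.0145% were called for TNF in CaCo-2 and THP-1, and 0.449% and 1.25% for the lines without and with TNF.

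Of 24 genes listed as derived from transposable elements, most with gag-like proteins as in PEG10, 14 were measured. RTL6 was called higher in CaCo-2 than in THP-1 cells after TNF, as were 0.709% of all spots. It differed by 0.77 ± 0.16 (SE, limma adjusted p = 0.0414) and was above 0 on 5 of 5 and 1 of 7 arrays. Without TNF it was above 0 on 2 of 5 and 3 of 5 and the difference was -0.15. The call after TNF was kept in 1 of 12 fits without 1 array (adjusted p up to 0.0944) and in 3 of 7 other settings. RTL8A differed in the unstimulated lines by 0.64 ± 0.16 (SE), above 0 on 4 of 5 and 0 of 5 arrays, without passing. Of 16 genes beside PEG10 at 7q21, 9 were measured and limma called 0 in all 4 comparisons. At an unadjusted p under 0.05 there were 1 and 0 for TNF in CaCo-2 and THP-1 and 2 and 0 for the lines without and with TNF, against 4.21%, 3.37%, 12% and 12% of all spots. The 2 were SLC25A13, a mitochondrial aspartate-glutamate carrier gene, and GNGT1, a G protein gamma subunit gene. SLC25A13 was above 0 on 5 of 5 CaCo-2 and 2 of 5 THP-1 arrays, with 0.44 ± 0.16 (SE), and GNGT1 on 4 of 5 and 1 of 5, with 0.64 ± 0.28 (SE). Neither passed after adjustment.

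Of the 27 genes of the IGF2BP family, its partners and described targets, 16 were measured, with IGF2BP1 taken by its brighter spot, 18C07. By limma 0 of these spots were called in any comparison. Those with an unadjusted p under 0.05 were 0 and 2 for TNF in CaCo-2 and THP-1 (4.21% and 3.37% of all spots), and 2 and 3 for the lines without and with TNF (12% of all spots in each). The other IGF2BP1 spot, 31J05, did have a limma adjusted p under the threshold between the lines, 0.0383 without and 0.00425 with TNF, values given as a description since IGF2BP1 may have been chosen on them. Without 1 array, 2 of 10 and 12 of 12 fits kept it under, and 3 of 8 and 4 of 7 other settings did. IGF2BP3, a relative also found in tumours, was above 0 on 7 of 7 TNF-treated and 2 of 5 unstimulated THP-1 arrays, a difference of 0.19 ± 0.06 (SE) that did not pass. Of 24 oncofetal genes 11 were measured. Between the lines after TNF 5 had an unadjusted p under 0.05, IGF2BP1 itself among them, against 12% of all spots. PLAC8 was called lower in CaCo-2 than in THP-1 cells after TNF, as were 0.541% of all spots. It had a log2 difference of -0.48 ± 0.08 (SE, limma adjusted p = 0.0285) and was above 0 on 1 of 5 and 7 of 7 arrays. The call was kept in 3 of 12 fits without 1 array, at adjusted p up to 0.0753, and in 5 of 7 other settings. LIN28B, which blocks let-7 maturation, was higher in value by 0.67 ± 0.14 (SE) without passing (limma adjusted p = 0.0526), and was above 0 on 5 of 5 and 1 of 7 arrays.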

How the data were processed

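Per the labels, mRNA of both lines was copied with radioactive dCTP and hybridised to cDNA arrays. The authors' deposited values behave as linear intensities; their image analysis and scaling are not given in sources used here. Negative values were taken as codes for excluded spots and set to missing. Of 33 columns, 11 were summed columns, and 10 of these matched a single column by their ratio at each spot. The single column was used, the unmatched summed column (THP-1 control replicate 3) was divided by 3, and the pair with opposite labels was left out, giving 22 arrays. The unmatched column had 32.1% of spots at 0, against 17.2% to 22.3% in the matched summed columns. Its divisor is an assumption.

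A value of 0 was set to the array's lowest value above 0 (0.0378 to 0.136), log2 was taken and arrays were quantile normalised, which placed zeros at -3.26. Comparisons were fitted on all spots with limma 3.58.1 (lmFit, eBayes with trend, R 4.3.3), adjusted by Benjamini-Hochberg, with a threshold of 0.05. The rate of false calls among spots with zeros, which include all members, was not tested. Exact permutation tests (two-sided) used scipy 1.17.1. Names came from the platform annotation: 18025 spots had 1 symbol, 858 several and 15677 none. Named were all members, each list gene past the threshold, and a selection of those with the smallest p of each list, plus, for the patterns, the 5 most similar spots of each member. MEST, SNRPN, DIRAS1, DIRAS2, BECN1, PIK3C3 and MAP1LC3B, and the second spots of ELF3, GNAS, H19 and KCNQ1OT1, were added after their values were seen. The members and lists were chosen with earlier results of these data known. Alternatives covered normalisation, zeros, dim spots, the fit, the column choice, the doubtful columns, the replicate number and each array left out. Replicate numbers were not taken as pairs, since same-numbered arrays gave correlations of deviations from -0.43 to 0.67.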

Additional observations from a re-analysis of the deposited data

Results flagged for a closer look

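In 10 of 21 groups of a member spot, 1 array stood apart from the others by Dixon's test at the 95% level. For continuous values chance would give about 1.05, but this does not apply to groups tied at 0. In 6 of the 10 all other readings were 0, so that any reading above 0 stands apart whatever its size.

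In THP-1 cells PEG10 spot 23I24 read 0.156 on unstimulated replicate 3 and 0.148 on TNF-treated replicate 6, against 0 on the other arrays of each group. PEG10 spot 50P19 read 0.332 on TNF-treated THP-1 replicate 2 and 87I22 read 0.202 on replicate 8, again against 0. IGF2BP1 spot 31J05 read 0.132 on unstimulated replicate 3 and 0.123 on TNF-treated replicate 1, with 0 on the others. Unstimulated replicate 3, the summed column without a partner, was the array apart in both PEG10 spot 23I24 and IGF2BP1 spot 31J05.

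In the other direction, PEG10 spot 50P19 was 0 on unstimulated CaCo-2 replicate 1 against 0.278 to 0.354. IGF2BP1 spot 18C07 was 0 on unstimulated THP-1 replicate 7 against 0.174 to 0.190, and 0 on unstimulated CaCo-2 replicate 3 against 0.155 to 0.212. PEG10 spot 87I22 read 0.193 on TNF-treated CaCo-2 replicate 6 against 0.232 to 0.248, on 1 of the 2 arrays with the lowest top value.

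Outside the groups, the array deposited under both CaCo-2 labels gave 0.284 for DIRAS3, where the 5 unstimulated arrays were at 0.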

How the results depend on the processing

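TNF in CaCo-2 gave 15 called spots. Their number was 1 without normalisation, 5 on the mean with the summed column, 6 with the doubly labelled array as TNF and 3 with the replicate block. It was 0 of 25624 spots with 0 as missing (725 at an unadjusted p under 0.05) and 0 of 7966 among spots above 0 on every array (193), both by limma. TNF in THP-1 gave 5, and 1 without normalisation or with medians subtracted. It gave 10 on the mean with the summed column, 11 without the unmatched summed column and 74 with the replicate block. By limma 0 were called with 0 as missing (917 unadjusted), among spots above 0 on every array (299) and in 1 fit of all 4 groups (1098). The lines without TNF gave 155 (97 higher, 58 lower in CaCo-2), but 26 (5 higher, 21 lower) without normalisation, 40 (9 and 31) with medians subtracted and 13 (4 and 9) with 0 as missing. After TNF they gave 432 (245 and 187), but 149 (92 and 57) without normalisation, 104 (70 and 34) with 0 as missing and, with the replicate block, 165 (73 and 92). Without 1 array the counts ran from 28 to 51 and 5 to 20 for TNF in CaCo-2 and THP-1, and from 175 to 469 (without CaCo-2 control replicate 1) and 115 to 336 for the lines.

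The only exact test with a call, PEG10 spot 87I22 between the lines after TNF, kept it without normalisation and without any 1 array. With 0 as missing it could not be run, since 1 TNF-treated THP-1 array was above 0. No sign of a called value turned. The setting that kept the doubly labelled array as a control was added after seeing the data. The limit is the zeros: they set most log2 differences, and 0 has no stated meaning.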
